A study of Mus musculus with 4 samples.

Results

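The genes described are 7 chemokine receptors of marrow progenitors and myeloid cells, Ccr1, Ccr2, Ccr7, Ccr9, Cx3cr1, Cxcr2 and Cxcr4. They were chosen by name, with earlier results of these data known. All 7 were found among the 19938 genes measured on the 4 arrays, each through 1 probe set of its own. The arrays were of the Affymetrix kind and the cells were mouse LSK cells, marrow cells that carry Sca-1 and Kit and lack lineage markers, a fraction rich in blood stem cells and early progenitors. A group of 2 arrays held Hdac3-null LSK/Flt3- cells from mice of the genotype Vav-Cre/Hdac3Flox/-, in which a floxed allele of the histone deacetylase gene Hdac3 lies opposite a null allele and the Cre recombinase is driven by the Vav promoter, which is active in blood cells. The wild-type mice gave 1 array of LSK/Flt3- cells and 1 of LSK/Flt3+ cells, named here the Flt3- wild type and the Flt3+ wild type. All mice were of the C57BL/6 background, and the sorted cells on an array came from a pool of 5 to 30 of them. No treatment is named, and the sources used here do not give age or sex, or say whether the wild-type mice carried Cre.

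Chemokine receptors are membrane proteins with several passes through the membrane that couple to inhibitory G proteins and steer cells along gradients of small secreted proteins, the chemokines. Cxcr4 and its ligand Cxcl12 hold stem and progenitor cells in the marrow, while Ccr2 and its ligands Ccl2 and Ccl7 bring monocytes out of it and into tissue. Cxcr2 serves the exit of neutrophils, Ccr7 and Ccr9 guide lymphoid cells and their precursors to lymph node, thymus and gut, and Cx3cr1 marks resident monocytes and macrophages.

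The arrays were checked against their labels. Array medians over all probe sets ran from 5.30 to 5.60, the highest on null replicate 1. Kit, the stem cell factor receptor of the gate, lay between 10.11 and 10.77 on all arrays; Sca-1 was not analysed here. Hdac3 was at 5.71 and 5.04 in null replicates 1 and 2 and at 6.18 and 6.33 in the Flt3- and Flt3+ wild types, but as nothing used here places its probes in or outside the deleted stretch, this is no check of genotype. Flt3 RNA was at 7.84 and 7.02 on the null arrays, 9.18 in the Flt3- wild type and 10.07 in the Flt3+ wild type. Xist, the RNA of the inactive X chromosome, was at 10.84 and 9.67 on the null arrays and at 4.23 and 3.90 on the wild-type arrays, so the sex of the pooled mice and their genotype cannot be told apart for any receptor. The p-values rest on the spread of the null pair alone, taken for the gene itself and pooled over all genes. Nothing in the labels says that the null replicates came from separate mice, so that spread may be technical. In pools of sorted cells, fewer cells of a type and less RNA per cell cannot be told apart.

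In the Hdac3-null cells, Ccr2 stood out among these receptors by size, with a level 7.98-fold that of the Flt3- wild type and 4.42-fold that of the Flt3+ wild type. Ccr1 and Cxcr2 were also higher on both null arrays than on both wild-type arrays, by smaller amounts. Cxcr4, Cx3cr1, Ccr7 and Ccr9 showed null levels on both sides of at least 1 wild-type array. None of the 7 receptors passed the limma test over all genes at an adjusted p of 0.05 in either comparison. That threshold was passed by 0.0201% of all genes against the Flt3- wild type and by 0.316% against the Flt3+ wild type. At an unadjusted p under 0.05, Ccr1, Ccr2 and Cxcr2 were higher against the Flt3- wild type, as were 1.1% of all genes, and Ccr2 and Cxcr2 against the Flt3+ wild type, as were 1.13%. With robust estimation of the spread, Ccr2 alone of the 7 passed, in both comparisons, where 0.0602% and 0.0752% of all genes were called higher. Both comparisons share the null arrays, so they are not independent of each other.

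**Figure D1:**
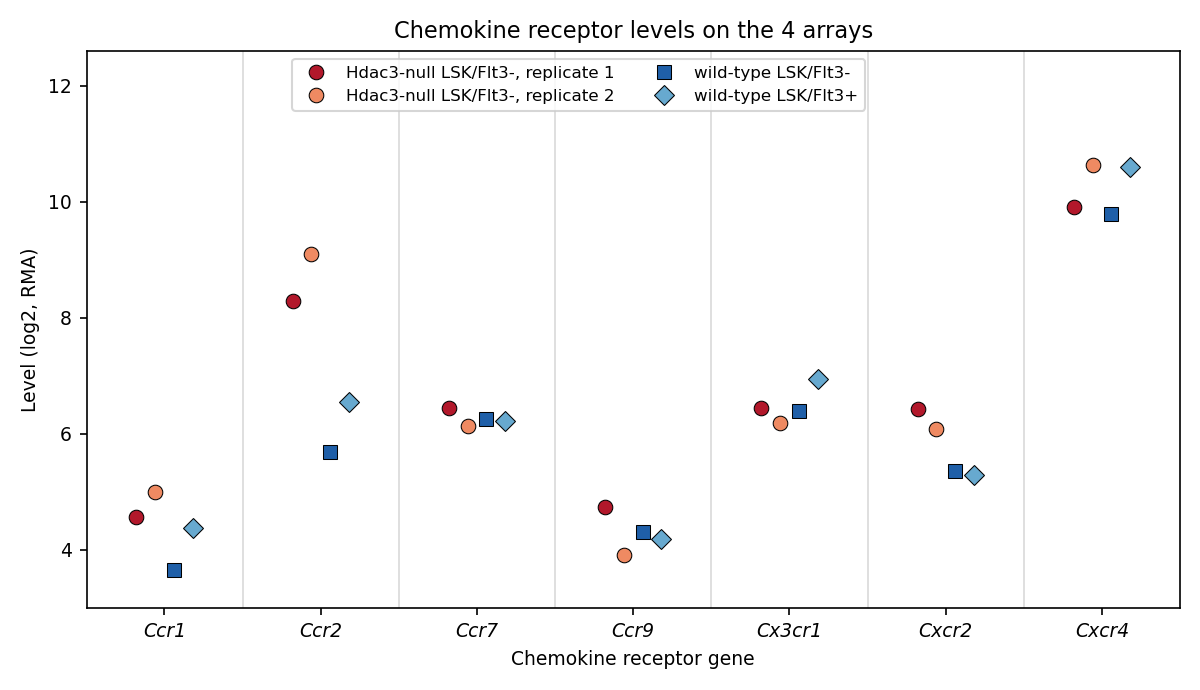
Level (log2, RMA) of each chemokine receptor gene on each of the 4 arrays, with 1 point per array: circles for the null replicates, a square for the Flt3- wild type and a diamond for the Flt3+ wild type. The Ccr2 points of the null arrays, at 8.28 and 9.10, lie above the wild-type points at 5.69 and 6.54, while the Ccr7 points lie within 0.30 of each other.

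Ccr2, the receptor of inflammatory monocytes for Ccl2, was at a log2 level of 8.28 on null replicate 1 and 9.10 on null replicate 2. It was at 5.69 in the Flt3- wild type and 6.54 in the Flt3+ wild type. Both null arrays lay above both wild-type arrays without overlap, and the gap from the lower null array to the higher wild-type array was 1.73 against 0.82 between the null replicates. The log2 difference from the Flt3- wild type was 3.0 ± 0.42 (SE; 95% interval 2.06 to 3.93; limma, adjusted p = 0.106, and 0.00394 to 0.36 over the 7 other fitted settings), and it ranked at place 6 of 19938 genes by p. Of all genes, 0.251% were at least 2-fold higher on both null arrays in this comparison. Against the Flt3+ wild type the difference was 2.14 ± 0.42 (SE; 95% interval 1.21 to 3.08; limma, adjusted p = 0.102, and 0.0145 to 0.207 over the other settings), at place 91 by p; at least 2-fold higher on both null arrays here were 0.261% of all genes. With null replicate 2 left out, the differences were 2.59 and 1.73, and with null replicate 1 left out, 3.41 and 2.56. At least 2-fold higher on both null arrays than on both wild-type arrays were 0.13% of all genes, and Ccr2 was the only receptor of the 7 among them.

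Ccr1 binds Ccl3, Ccl5 and Ccl9 on myeloid cells and their progenitors. It was at 4.57 and 4.99 in null replicates 1 and 2, at 3.65 in the Flt3- wild type and at 4.38 in the Flt3+ wild type. The null arrays were again above both wild-type arrays, but the Flt3+ wild type lay only 0.19 below null replicate 1, less than the 0.41 between the null replicates. The log2 difference was 1.13 ± 0.31 (SE; limma, adjusted p = 0.937) from the Flt3- wild type and 0.40 ± 0.31 (SE; adjusted p = 1) from the Flt3+ wild type. These levels lay below the median of all probe sets on each array, and no detection call accompanies the values, so whether Ccr1 stood above background is unknown; the same holds for Ccr9.

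Cxcr2, the neutrophil receptor for Cxcl1, Cxcl2 and other chemokines of that group, was at 6.42 and 6.08 in null replicates 1 and 2. It was at 5.35 in the Flt3- wild type and 5.29 in the Flt3+ wild type, a pair only 0.06 apart. The groups did not overlap, and the null excess was of like size against both wild-type fractions, with log2 differences of 0.90 ± 0.34 (SE; limma, adjusted p = 1) and 0.96 ± 0.34 (SE; limma, adjusted p = 0.92). In fold terms these were 1.87 and 1.94. The wild-type levels lay near the medians of all probe sets on those arrays (5.32 for Flt3- and 5.36 for Flt3+). Without a detection call, whether Cxcr2 stood above background there is unknown. In all, 3 of the 7 receptors lay above both wild-type arrays on both null arrays, as did 23.0% of all genes. Against the Flt3- wild type alone the count was 4 of 7, against 41.3% of all genes, and against the Flt3+ wild type alone 3 of 7, against 35.0%. The count by direction is therefore near that of other genes for so few members, and it is the size for Ccr2 that departs from most genes. As the receptors were chosen with earlier results of these data known, that size describes Ccr2 and is no test of it.

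Cxcr4, the receptor for the retention chemokine Cxcl12, was at 9.90 and 10.63 in null replicates 1 and 2, 9.78 in the Flt3- wild type and 10.60 in the Flt3+ wild type. The levels paired across groups: null replicate 1 lay beside the Flt3- wild type, and null replicate 2 beside the Flt3+ wild type. The differences of 0.49 ± 0.38 and -0.34 ± 0.38 (SE; limma, adjusted p = 1 for each) had 95% intervals of -0.35 to 1.33 and -1.18 to 0.50, which include a 2-fold excess over the Flt3- wild type and a 2-fold deficit from the Flt3+ wild type. Cx3cr1, the fractalkine receptor, was at 6.45 and 6.18 in null replicates 1 and 2, 6.39 in the Flt3- wild type and 6.94 in the Flt3+ wild type. Both null arrays were lower than the Flt3+ wild type, as were 25.1% of all genes, with a difference of -0.63 ± 0.35 (SE; limma, adjusted p = 1), and they straddled the Flt3- wild type (-0.08 ± 0.35, SE).

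The 2 lymphoid homing receptors had null levels on either side of each wild-type array. Ccr7, which responds to Ccl19 and Ccl21 in lymph nodes, was at 6.44 and 6.14 in null replicates 1 and 2, 6.25 in the Flt3- wild type and 6.22 in the Flt3+ wild type. Its differences were 0.04 ± 0.35 and 0.07 ± 0.35 (SE), with 95% intervals of -0.73 to 0.82 and -0.70 to 0.85. Ccr9, the Ccl25 receptor of thymus-seeding cells, was at 4.74 and 3.91 in null replicates 1 and 2, 4.31 in the Flt3- wild type and 4.19 in the Flt3+ wild type. Here the null replicates were 0.83 apart, more than any other pair of arrays for this gene, and they bracketed both wild-type arrays. The differences were 0.01 ± 0.37 and 0.13 ± 0.37 (SE; limma, adjusted p = 1 for each). The sign for Ccr7 and Ccr9 against the Flt3- wild type turned under other scalings between arrays, so no direction is given for them. Null replicates 1 and 2 were more than 0.7 apart for 3 receptors, Ccr2, Ccr9 and Cxcr4, against 10.1% of all genes.

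**Figure D2:**
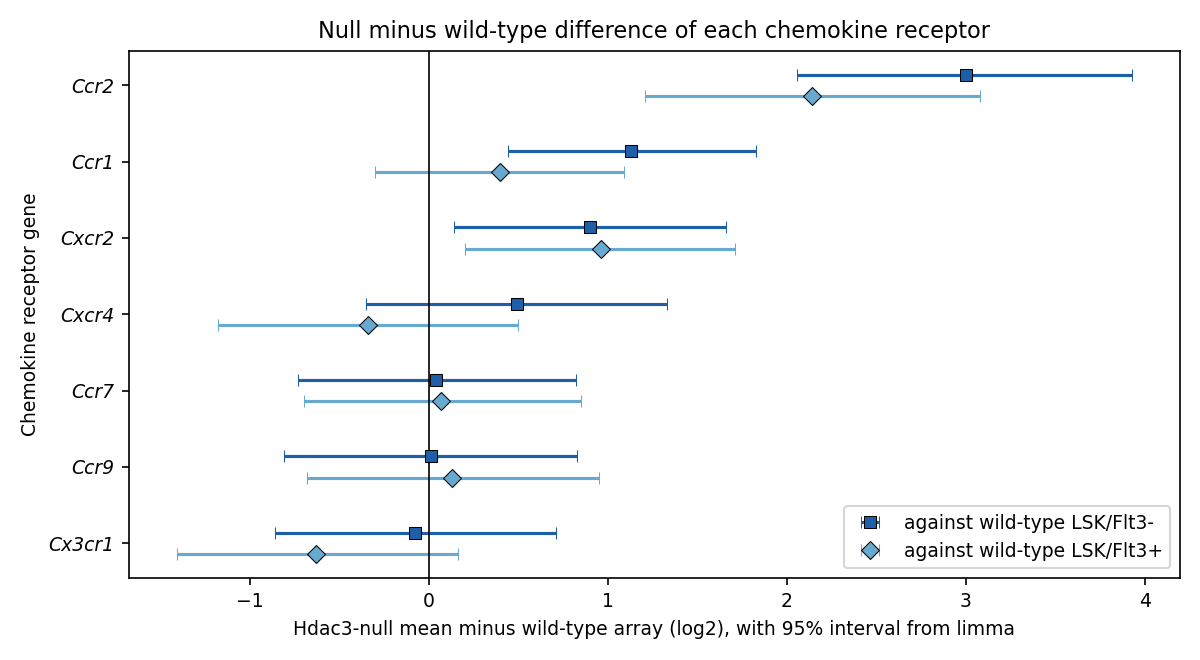
Null mean minus wild-type array (log2) for each receptor, with bars for the 95% interval of the limma fit: squares against the Flt3- wild type and diamonds against the Flt3+ wild type. Both intervals lie above 0 for Ccr2 (from 2.06 and 1.21 upward) and for Cxcr2 (from 0.14 and 0.20 upward), and for Ccr1 the interval against the Flt3- wild type does.

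Between the wild-type fractions there is 1 array each and so no test. Flt3 appears on LSK cells as they gain lymphoid potential. The Flt3+ wild type was higher for Ccr2 (by 0.85 on the log2 scale, a fold of 1.8), Cxcr4 (0.83, fold 1.78), Ccr1 (0.74, fold 1.67) and Cx3cr1 (0.55, fold 1.46). These 4 of the 7 receptors were more than 0.5 higher on the Flt3+ wild type, against 5.35% of all genes. Ccr9 (-0.12), Cxcr2 (-0.06) and Ccr7 (-0.03) differed by less than the null replicates did for the same gene (0.83, 0.35 and 0.30). For Ccr2, Cxcr4, Ccr1 and Cx3cr1 the fraction difference was above the null replicate difference of the same gene (0.82, 0.72, 0.41 and 0.27), by only 0.03 for Ccr2. None of the 7 was at least 2-fold apart between the wild-type arrays. Macrophage markers also moved with this difference: all 8 were higher on the Flt3+ wild type, 5 of them at least 2-fold (0.923% of all genes), with the mannose receptor gene Mrc1 at 8.62 against 4.70 and the complement gene C1qc at 8.18 against 4.89. Their summed level on the linear scale was 1427 on the Flt3+ wild type, 337.3 on the Flt3- wild type and 456.4 and 504.5 on the null arrays. Cd68 weighed most in the null sums, at 8.02 and 8.38 on the null arrays against 6.95 in the Flt3- wild type. Both null arrays were higher than the Flt3- wild type for 1 of the 8 (41.3% of all genes). They were lower for 4 (19.9% of all genes), and the median difference was -0.17. The part of macrophage RNA in the receptor levels of the Flt3+ wild type was not tested.

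Markers of monocytes and of granulocyte-monocyte progenitors were set beside Ccr2, since both cell types carry the receptor. Of 8 measured monocyte markers, both null arrays were higher than the Flt3- wild type for 2 (41.3% of all genes) and lower for 4 (19.9% of all genes), and the median difference was -0.13 against 0.09 over all genes. Csf1r, the receptor for macrophage colony-stimulating factor, was at 5.59 and 5.97 on the null arrays and 5.77 in the Flt3- wild type. F13a1, the coagulation factor XIII chain of monocytes, was at 5.04 and 6.24 against 6.29. The largest differences from the Flt3- wild type in each direction were those of Ms4a6c (-0.86) and Cd14 (0.46). By the mean of the null arrays, 3 of the 8 were higher and 5 lower. The summed monocyte marker level was 543.4 and 706.0 on the null arrays, 753.6 in the Flt3- wild type and 1793 in the Flt3+ wild type. The part of monocyte RNA in the Ccr2 levels was not tested. Against the Flt3+ wild type, Csf1r was lower (-2.34, limma, adjusted p = 0.025) and 7 of 8 markers were lower on both null arrays, beside 25.1% of all genes. For Csf1r the Flt3+ wild type was itself 2.35 above the Flt3- wild type, from which the null mean differed by 0.01.

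Progenitor markers stood higher on the null arrays, as Ccr2 did. The marker lists, like the receptors, were chosen with earlier results of these data known, so their counts are descriptions. Of the 10 granulocyte-monocyte progenitor markers, 9 were higher on both null arrays than on the Flt3- wild type (41.3% of all genes) and 9 than on the Flt3+ wild type (35.0%), with median differences of 1.13 and 0.88. Ms4a3, a membrane protein gene of these progenitors, rose against both wild types (3.11 and 2.80; limma, adjusted p = 0.0321 and 0.00931, calls made for 0.0201% and 0.0351% of all genes upward), and Csf2rb, the shared chain of several myeloid cytokine receptors, was at 8.06 and 7.97 against 6.22 and 6.44 (adjusted p = 0.347 and 0.201). The summed level was 7702 and 9104 on the null arrays against 3622 and 4172 on the wild-type arrays. Mpo, the myeloperoxidase gene, weighed most in these sums, at 12.12 and 12.30 on the null arrays and 11.35 and 11.47 on the wild-type arrays. How far Ccr2 moves with the number of such progenitors in the sort was not tested. Among mast cell and basophil markers, 7 of 8 were higher on both null arrays than in the Flt3- wild type, beside 41.3% of all genes (median 1.03), led by Fcer1a, a chain of the IgE receptor (2.66), and Gzmb, a granzyme (1.53). Against the Flt3+ wild type 4 of 8 were higher on both null arrays, beside 35.0% of all genes, and 2 were lower, beside 25.1%. The median there was 0.21, with Gzmb at 1.66, Fcer1a at 1.45, and the basophil protease genes Mcpt8 and Prss34 at -0.57 and -0.93. Their summed level was 752.4 and 1478 on the null arrays against 623.9 in the Flt3- wild type and 1120 in the Flt3+ wild type. Neutrophil markers were higher on both null arrays than in the Flt3- wild type for 5 of 10 and lower for 3, near the 41.3% and 19.9% of all genes, with S100a8, a calgranulin, at -1.36 and Ngp, a granule protein, at 1.25.

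The other marker lists had smaller or negative medians against the Flt3- wild type. Both null arrays were lower than the Flt3- wild type for 5 of 8 lymphoid priming markers (median -0.72) and for 3 of 7 B cell markers (median -0.15), beside 19.9% of all genes. Dntt, the polymerase of antigen receptor joining, differed by -3.14, Satb1, a chromatin organiser, by -2.29 and the surrogate light chain gene Vpreb1 by -1.34. Against the Flt3+ wild type all 8 lymphoid priming markers were lower on both null arrays, beside 25.1% of all genes. Dntt, Satb1 and the interleukin 7 receptor gene Il7r were called lower (-4.95, -2.92 and -2.13, limma, adjusted p = 0.00275, 0.00931 and 0.0231), as were 0.281% of all genes. Flt3, also among the 8, was called lower too (-2.64, limma, adjusted p = 0.0317). The null cells were sorted as Flt3- and this wild type as Flt3+, so the gate bears on that call. Against the Flt3- wild type the median was -0.01 for 7 stem cell markers, whose members went both ways. Their median against the Flt3+ wild type was 0.53. There 5 of the 7 were higher on both null arrays, beside 35.0% of all genes, and 2 were lower, beside 25.1%. Slamf1, the CD150 marker gene of stem cells, was at 8.52 and 8.17 on the null arrays, 6.16 in the Flt3- wild type and 5.08 in the Flt3+ wild type; it rose against the Flt3+ wild type (3.27; limma, adjusted p = 0.00506) and differed from the Flt3- wild type by 2.18 (adjusted p = 0.174). Mecom, a transcription factor gene of stem cells, differed by -1.32 and -0.54 (adjusted p = 1 for each). Against the Flt3- wild type the median was -0.17 for 8 macrophage markers, with the lysosomal protein gene Cd68 at 1.25 and C1qc at -1.07 (adjusted p = 1 for each). Against the Flt3+ wild type all 8 were lower on both null arrays, beside 25.1% of all genes (median -1.06). There 3 were called lower, beside 0.281% of all genes: C1qc (-4.36), Mrc1 (-4.13) and Adgre1 (-2.84). Against the Flt3- wild type the median was 0.19 for 11 T and NK cell markers, -0.06 for 7 dendritic cell markers, -0.35 for 4 gate markers and -1.17 for 4 erythroid markers. The summed erythroid level was 241.3 and 2166 in null replicates 1 and 2 against 3929 in the Flt3- wild type. The gene Car1 weighed most in the larger sums, at 6.44 and 10.92 on the null replicates and 11.81 in the Flt3- wild type. Null replicate 1 minus replicate 2 was -4.49 for Car1, -1.27 for Rhag, -0.38 for Klf1 and -0.21 for Epor.

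**Figure D3:**
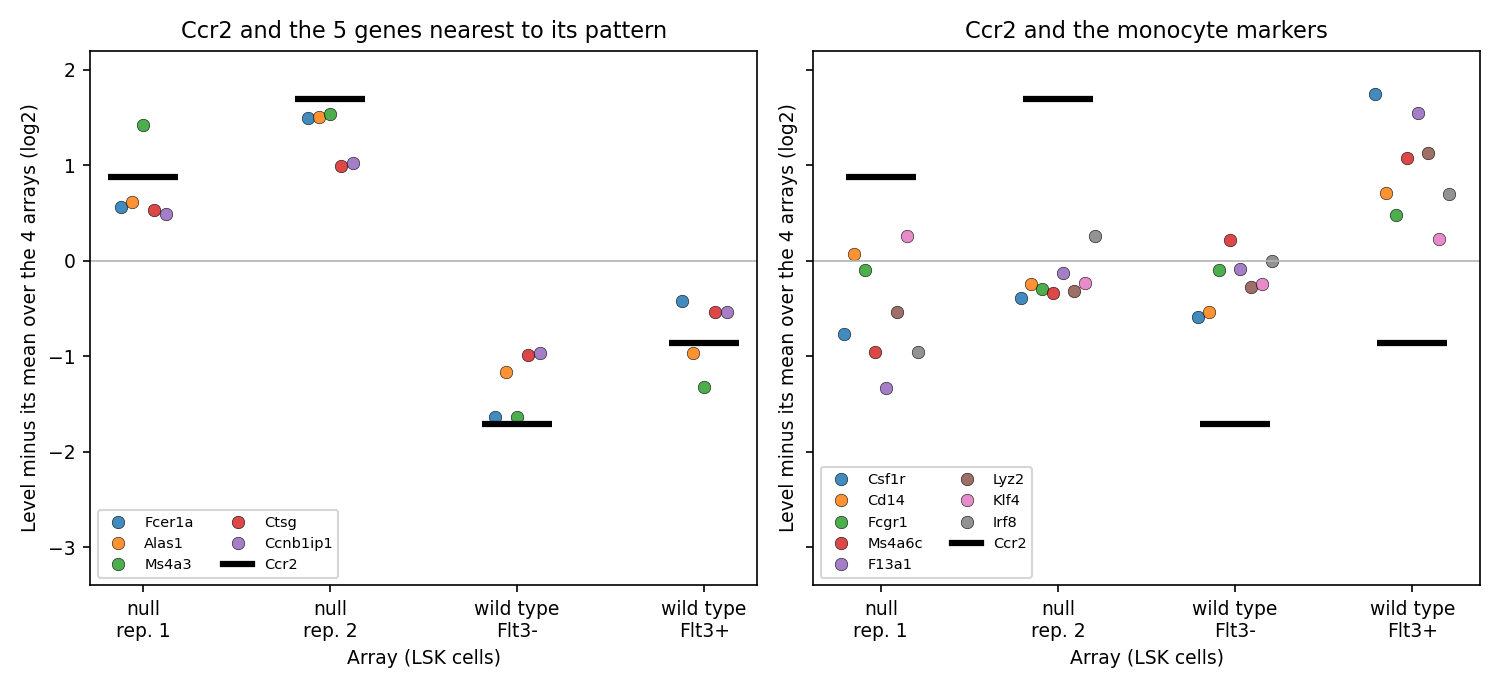
Level minus the gene's own mean over the 4 arrays (log2), with 1 point per gene and array; the black bars mark Ccr2. On the left are the 5 genes nearest to Ccr2, which are high on the null arrays like it; on the right are the 8 monocyte markers, all above their own mean on the Flt3+ wild type, where Ccr2 is below its mean.

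The genes with the pattern most like that of Ccr2 were ranked by the root-mean-square difference of mean-centred log2 levels over the 4 arrays. Among 17241 genes compared, the nearest were Fcer1a (0.29), Alas1, the first enzyme of heme synthesis (0.32), Ms4a3 (0.37), the granule protease gene Ctsg (0.56) and Ccnb1ip1 (0.56), and only 8 genes lay within 0.6. None lay within 0.25. For Cxcr2 the nearest were Socs2, Zfp799, Csgalnact2, Sele and Plod2 (0.06 to 0.07), and for Ccr1 they were Tmem50b (0.02), Cst7 (0.03), Prss57 (0.05), Abcd2 (0.11) and Podxl (0.12). The smaller swings of these 2 receptors are shared by many genes, with 448 and 114 genes within 0.25. The likeness rests on 4 arrays, 2 of which are the null pair.

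The genes Ccr1, Ccr2, Ccr9 and Cx3cr1 lie on mouse chromosome 9, and Ccr1, Ccr2 and Ccr9 lie in a cluster of receptor genes there in the RefSeq order. The nearest measured neighbour of Ccr2 was Ccr3, the eosinophil eotaxin receptor, with no gene between them. It was at 4.73 and 4.86 in null replicates 1 and 2, 4.26 in the Flt3- wild type and 4.31 in the Flt3+ wild type. The differences of 0.53 ± 0.30 and 0.48 ± 0.30 (SE; limma, adjusted p = 1 for each) point the same way as those of Ccr2 but are far smaller. Next on that side were Ccr1l1 (0.22 and -0.12), Ccr1 itself and Xcr1, the receptor of cross-presenting dendritic cells (-0.12 and 0.37). Ccr3, Ccr1l1 and Xcr1, like Ccr1, lay below the median of all probe sets on each array. Without a detection call, whether they stood above background is unknown. Of the 9 genes listed after Ccr2 on the chromosome, 0 were measured.

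The stretches before the start sites of Ccr1 and Cxcr2 are shown because, with Ccr2, these genes were higher on both null arrays than on both wild-type arrays. They are the 250 bases before the start in RefSeq (GRCm38.p6), printed 5′ to 3′ on the gene's strand, at chr9:123968693-123968942 (minus strand) for Ccr1 and chr1:74153744-74153993 (plus strand) for Cxcr2. Capitals mark GAGGAA or its reverse complement, the core letters bound by the myeloid factor PU.1. The corresponding window of Ccr2 lies inside the annotated gene and is not printed.
Ccr1: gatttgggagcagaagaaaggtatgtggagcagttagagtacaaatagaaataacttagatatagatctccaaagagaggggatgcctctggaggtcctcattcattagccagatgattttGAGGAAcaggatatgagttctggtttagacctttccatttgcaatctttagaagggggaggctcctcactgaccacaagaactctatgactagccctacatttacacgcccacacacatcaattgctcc
Cxcr2: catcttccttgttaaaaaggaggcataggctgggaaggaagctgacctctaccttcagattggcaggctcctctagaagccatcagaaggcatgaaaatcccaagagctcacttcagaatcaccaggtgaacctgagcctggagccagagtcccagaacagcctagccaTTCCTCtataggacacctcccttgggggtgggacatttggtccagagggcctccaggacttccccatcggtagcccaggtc
Both strands were searched. The Ccr1 match begins 129 bases before the start, and the Cxcr2 match, which is the reverse complement, begins 81 bases before it. Of the 6 receptors with a window (Ccr1, Ccr2, Ccr9, Cx3cr1, Cxcr2 and Cxcr4), these 2 held the letters and the Ccr2 window did not, while 23.3% of 32851 windows of the same length did. The letters TTGCNNAA, a core for C/EBP factors, were in 0 of the 6 windows and in 9.56% of all. These are matches of letters only.

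Ligands of the 7 receptors were set beside them to compare the cells' own chemokine RNA with that of the receptors. Of 17 listed ligands, 16 were measured. Ccl3, a ligand of Ccr1, was at 4.91 and 6.00 in null replicates 1 and 2, 7.96 in the Flt3- wild type and 9.42 in the Flt3+ wild type. The null arrays were below both wild-type arrays, opposite to Ccr1, with a fall of -3.96 ± 0.46 (SE; limma, adjusted p = 0.00619) against the Flt3+ wild type and a difference of -2.51 ± 0.46 (SE; adjusted p = 0.256) against the Flt3- wild type. Cxcl2, a ligand of Cxcr2, was at 5.39 and 4.22 on the null arrays, 6.00 in the Flt3- wild type and 8.24 in the Flt3+ wild type. It fell against the Flt3+ wild type (-3.44 ± 0.46, SE; limma, adjusted p = 0.0126) and was at -1.19 ± 0.46 (SE; adjusted p = 1) against the Flt3- wild type. These were the 2 of 16 ligands called lower there, where 0.281% of all genes were, and 0 were called higher; against the Flt3- wild type 0 were called, with 1 higher (1.1% of all genes) and 2 lower (1.3%) at an unadjusted p under 0.05.

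The measured ligands of Ccr2 were highest in the Flt3+ wild type, not on the null arrays where the receptor was. Ccl2 was at 5.05 and 4.52 in null replicates 1 and 2, 4.41 in the Flt3- wild type and 6.49 in the Flt3+ wild type, and Ccl12 was at 4.22 and 4.33 against 3.85 and 5.44. On the null arrays and the Flt3- wild type, Ccl2 and Ccl12 lay below the median of all probe sets. Without a detection call, whether they stood above background there is unknown. Ccl7 differed by -0.44 from the Flt3- wild type and by -0.60 from the Flt3+ wild type, and was only 0.15 higher in the Flt3+ than in the Flt3- wild type. Against the Flt3+ wild type the differences of Ccl2 (-1.71), Ccl12 (-1.17) and Ccl6, a myeloid chemokine (-1.09), had adjusted p of 0.113, 0.309 and 0.663. On that array 15 of 16 ligands were higher than in the Flt3- wild type, as were 11295 of all 19938 genes, and 5 were at least 2-fold higher, as were 0.923% of all genes. The macrophage markers given above were higher on the same array. Ppbp, a platelet chemokine that acts on Cxcr2, was high on null replicate 2 alone (6.35 and 8.66 on replicates 1 and 2, 5.83 and 6.52 in the wild types). Cxcl12, made mainly by marrow stroma, lay between 4.67 and 4.86 on all 4 arrays.

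**Figure D4:**
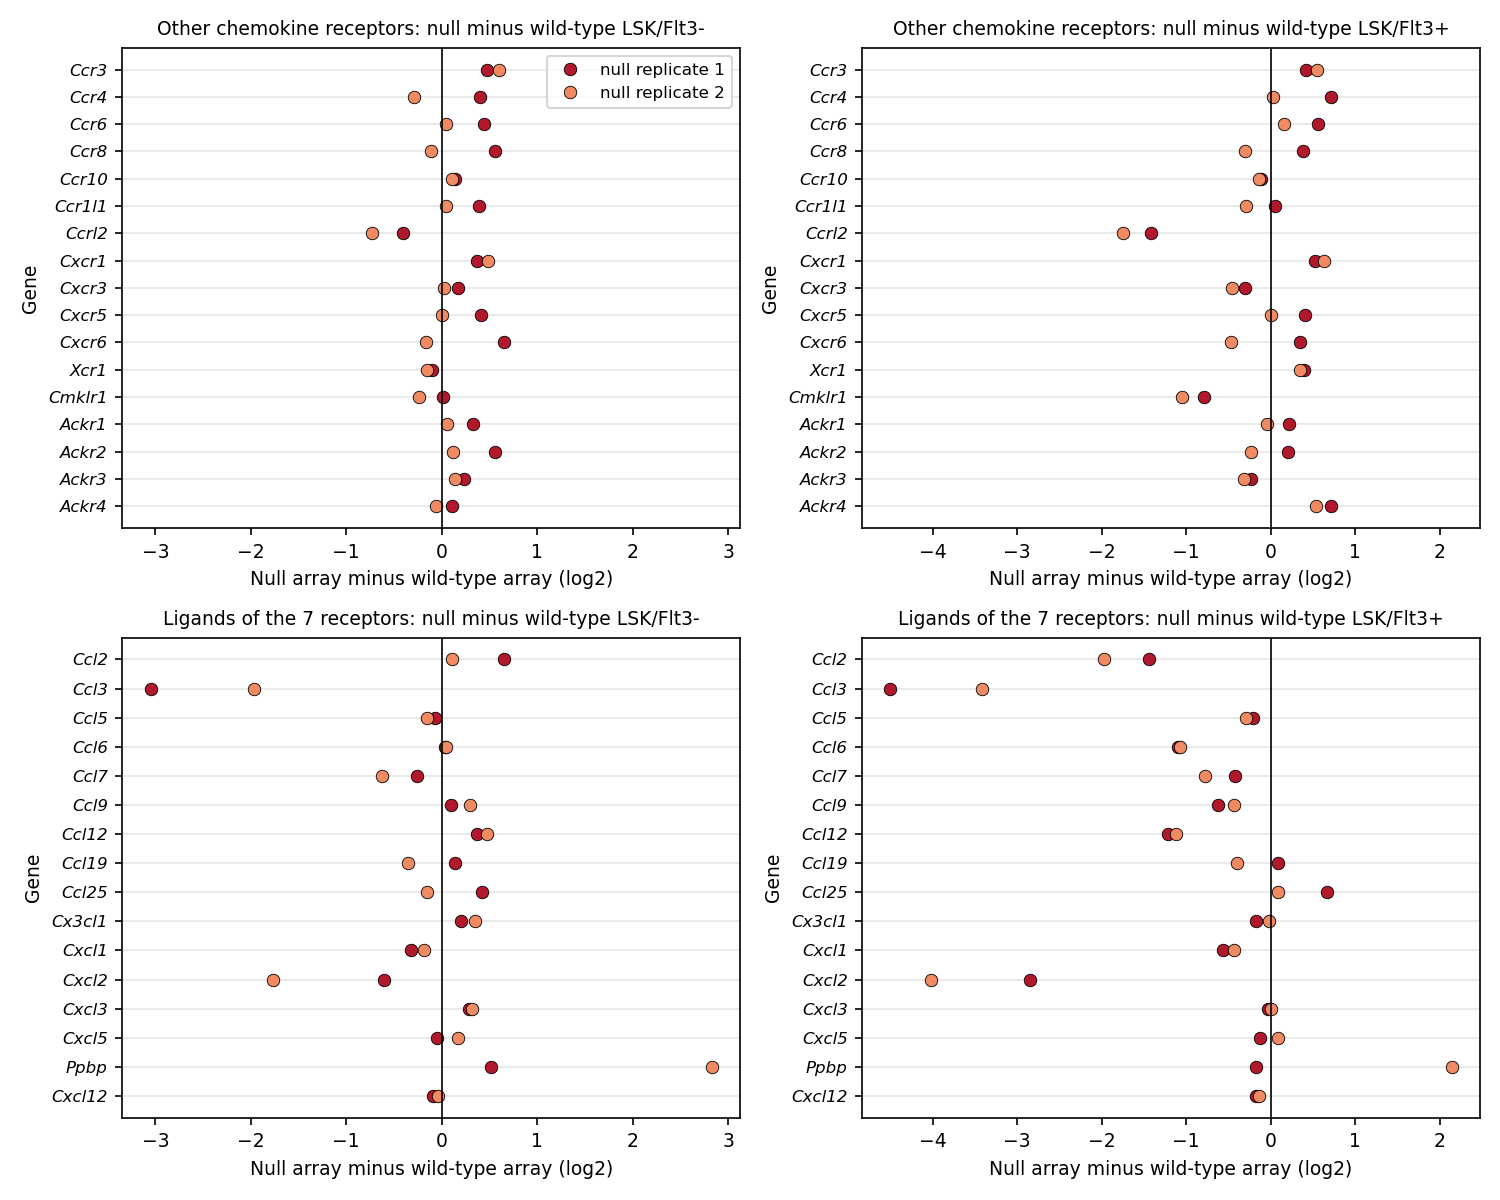
Null array minus wild-type array (log2), with 1 point per null replicate and gene, against the Flt3- wild type on the left and the Flt3+ wild type on the right; the upper panels hold 17 other chemokine receptors and the lower ones 16 ligands. Ccl3 and Cxcl2 lie to the left of 0 on both null arrays in both comparisons, to -4.50 and -4.02, and among the receptors Ccrl2 does so, to -1.75.

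Of 18 other chemokine receptors listed, 17 were measured and 0 passed the limma test in either comparison; at an unadjusted p under 0.05, 0 differed from the Flt3- wild type and 2 were lower than the Flt3+ wild type, as were 2.31% of all genes. The median difference was 0.20 against the Flt3- wild type and 0.04 against the Flt3+ wild type, beside 0.09 and 0.05 over all genes. Ccrl2, which binds chemerin without signalling, was at 6.03 and 5.71 in null replicates 1 and 2, 6.44 in the Flt3- wild type and 7.46 in the Flt3+ wild type. Both null arrays were below both wild-type arrays, as for 11.7% of all genes, with differences of -0.57 ± 0.35 and -1.59 ± 0.35 (SE; limma, adjusted p = 1 and 0.191). The chemerin receptor Cmklr1 differed by -0.12 and -0.92. Cxcr1, the closest relative of Cxcr2, was at 5.76 and 5.88 on the null arrays and 5.39 and 5.24 on the wild-type arrays, above both like Cxcr2 but by 0.43 and 0.58. The decoy receptors Ackr2 (0.34 and -0.02) and Ackr4 (0.03 and 0.62) had adjusted p = 1 in both comparisons.

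Downstream of the receptors, 30 of 32 listed signalling genes were measured and 0 passed the limma test in either comparison; at an unadjusted p under 0.05, 0 were higher (1.1% and 1.13% of all genes) and 2 lower (1.3% and 2.31%), in both comparisons. The median difference was 0.01 against the Flt3- wild type and -0.10 against the Flt3+ wild type. The 2 lower genes were Rgs1 and Rgs2, whose products end G protein signals. Rgs1 was at 7.77 and 7.73 in null replicates 1 and 2, 9.38 in the Flt3- wild type and 9.70 in the Flt3+ wild type. The null replicates were only 0.04 apart here, and the differences were -1.64 ± 0.35 and -1.95 ± 0.35 (SE; limma, adjusted p = 0.498 and 0.0642). Rgs2 was at 8.30 and 8.06 against 9.10 and 9.52 (-0.93 and -1.34; adjusted p = 1 and 0.389). The beta-arrestin gene Arrb2, whose product uncouples and internalises receptors, was at 0.69 and 0.19, and Tiam1, an activator of Rac, at 0.60 and 0.41. Plcb2 (0.20 and 0.48), Gnb1 (0.38 and 0.47) and Gnai2 (-0.12 and -0.47), which encode a phospholipase and G protein subunits that carry the signal, did not pass.

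Adhesion and retention genes, which act with Cxcr4 in the marrow niche, gave 13 measured of 14, with 0 past the limma test in either comparison; 0 had an unadjusted p under 0.05 against the Flt3- wild type and 1 was lower against the Flt3+ wild type, as were 2.31% of all genes. S1pr1, the receptor that draws cells toward blood, was at 6.51 and 6.42 in null replicates 1 and 2 against 7.15 and 6.64 on the wild-type arrays (-0.69 ± 0.35 and -0.18 ± 0.35, SE). Vcam1, an adhesion molecule also present on marrow macrophages, was at 4.86 and 4.38 on the null arrays, 4.47 in the Flt3- wild type and 6.06 in the Flt3+ wild type (0.15 and -1.45; adjusted p = 1 and 0.216). The integrin genes Itgal (0.53 and 0.32), Itgb2 (0.51 and -0.18), Itgb1 (-0.42 and -0.12) and Itgam (0.18 and -0.81), the hyaluronan receptor gene Cd44 (-0.01 and -0.43) and Esam, an endothelial and stem cell adhesion gene (0.35 and 0.71), all had adjusted p = 1. The median differences over the 13 genes were 0.14 and -0.18.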

How the data were processed

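RNA of 4 pools of sorted mouse marrow cells was measured on Affymetrix arrays. Per the submitters' processing notes, the authors ran RMA in affy 1.23, and what they deposited is a log2 level for each probe set. Array medians differ, so the scaling in the values is not settled. The sources used here name no genome build. Of 35556 probe sets, the 21789 with a single gene symbol in the platform annotation were used, and where a gene had several, that of the highest mean stood for it, giving 19938 genes. All 4 arrays entered a limma 3.58.1 fit (R 4.3.3) with 3 groups and a mean-dependent prior, two-sided, with Benjamini-Hochberg adjustment over all genes at 0.05. Only the null pair supplies a residual degree of freedom (1, beside 9.01 from the prior), and the spread of the single wild-type arrays is taken to equal theirs. The median SE of a difference was 0.34 on the log2 scale, a precision set by how few arrays there are. The wild-type arrays were compared without a test. The fit was tested on simulated data. The members and gene lists were chosen with earlier results of these data known.

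Genes were named by rule: the 7 receptors, the up to 4 largest differences and any call of each pathway list, the up to 2 largest of each marker list, the 5 genes nearest to each receptor with a range of at least 1, and the neighbours of Ccr2. Predicted, olfactory and small RNA genes were passed over in that ranking. Kit, Hdac3, Flt3, Xist and Cxcl12 were added as checks or for their role. Alternatives were other scalings, priors, probe set rules, a filter on low levels and leaving out a null array.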

Additional observations from a re-analysis of the deposited data

How the results depend on the processing

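No paired analysis was possible because the wild-type groups have 1 array each and carry no replicate number. Ccr2, Ccr1 and Cxcr2 kept a positive difference in both comparisons under all alternatives that gave them a value, and Cxcr2, Ccr1 and Ccr9 were not tested under the filter that keeps mean levels of 6 or more. Robust estimation brought Ccr2 past the threshold, at 3.0 (limma, adjusted p = 0.00394) and 2.14 (adjusted p = 0.0145). Against wild-type LSK/Flt3-, Ccr7 turned to -0.07 with arrays centred on their medians and -0.03 after cyclic loess, and Ccr9 turned to -0.11 with centring, -0.13 after quantile normalization and -0.14 after cyclic loess; centring moved the median of all genes from 0.09 to -0.02. Leaving out 1 null array gave ranges against wild-type LSK/Flt3- of 2.59 to 3.41 for Ccr2, 0.93 to 1.34 for Ccr1, 0.73 to 1.07 for Cxcr2, 0.13 to 0.85 for Cxcr4, -0.11 to 0.19 for Ccr7, -0.40 to 0.42 for Ccr9 and -0.21 to 0.06 for Cx3cr1. Against wild-type LSK/Flt3+ they were 1.73 to 2.56 for Ccr2, 0.19 to 0.60 for Ccr1, 0.78 to 1.13 for Cxcr2, -0.70 to 0.02 for Cxcr4, -0.08 to 0.22 for Ccr7, -0.28 to 0.55 for Ccr9 and -0.76 to -0.49 for Cx3cr1; these have no test, as no residual degree of freedom is left. The genes called against wild-type LSK/Flt3-, 4 as reported, were 2 with centring, 2 after cyclic loess, 0 after quantile normalization (599 at an unadjusted p under 0.05) and 25 with robust estimation (12 higher and 13 lower). Against wild-type LSK/Flt3+, 63 as reported became 99 with centring, 114 with robust estimation and 22 with the filter on low levels. That filter tests 8418 genes and also refits the prior. The cause of the changes in either comparison was not tested.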
